A study of Mus musculus with 24 samples.

Results

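Microglial genes were taken here as a list of 10 genes, Cx3cr1, Csf1r, P2ry12, Tmem119, Aif1, Trem2, Tyrobp, C1qa, C1qb and C1qc, out of the 55385 genes that were counted. The list uses no measured level, but it was chosen with earlier results of these data known. All 10 had counts in each of the 24 libraries, from 98 to 5090 per library, and all passed the filter on low counts in every comparison. The RNA-Seq libraries came from the hippocampus (HIP) and entorhinal cortex (EC) of 6 Ts65Dn mice and 6 wt littermates, with 1 library per region and mouse. The mice were males aged 5 to 6 months, on an F1 B6C3B background. Ts65Dn, a mouse model of Down syndrome, carries an extra small chromosome with a segment of mouse chromosome 16 related to human chromosome 21 and the centromeric part of chromosome 17. None of the 10 genes lies in these segments, so all have the usual copy number in both genotypes. The tissue was bulk, and fewer microglia and less RNA per microglial cell cannot be told apart in it.

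Microglia are the resident macrophages of the brain. They depend on signals from neighbouring cells, among them colony-stimulating factor and IL-34 acting through CSF1R and the neuronal chemokine fractalkine acting through CX3CR1, and they follow nucleotides released by other cells through the receptor P2RY12. TREM2 and its adaptor DAP12, the product of Tyrobp, form a lipid-sensing receptor complex. The C1Q chains A, B and C assemble into C1Q, which microglia supply in the brain. C1Q is part of the first component of the classical complement pathway. In mice the genes of the 3 chains lie side by side on chromosome 4, C1qb at 136880129 to 136886187, C1qc at 136889804 to 136893065 and C1qa at 136895917 to 136898803 (GRCm38).

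The promoters of 3 members are shown, since P2ry12 was the only member that differed by genotype and C1qb and C1qc varied closely together over the libraries. Each stretch runs from 250 bases before to 50 after the gene start given by RefSeq (GRCm38.p6), on the strand of the gene. They lie at chr3:59262936-59263235 for P2ry12, chr4:136886151-136886450 for C1qb and chr4:136892865-136893164 for C1qc, all on the minus strand. Capitals mark GAGGAA or, on the other strand, TTCCTC, the letters at the core of the sequence bound by PU.1, a transcription factor of macrophages encoded by Spi1.
P2ry12: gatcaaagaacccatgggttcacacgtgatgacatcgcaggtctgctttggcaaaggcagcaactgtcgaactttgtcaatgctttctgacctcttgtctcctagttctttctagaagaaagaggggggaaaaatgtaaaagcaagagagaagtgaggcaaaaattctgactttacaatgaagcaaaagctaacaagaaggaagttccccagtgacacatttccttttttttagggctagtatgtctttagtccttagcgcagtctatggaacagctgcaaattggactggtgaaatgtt
C1qb: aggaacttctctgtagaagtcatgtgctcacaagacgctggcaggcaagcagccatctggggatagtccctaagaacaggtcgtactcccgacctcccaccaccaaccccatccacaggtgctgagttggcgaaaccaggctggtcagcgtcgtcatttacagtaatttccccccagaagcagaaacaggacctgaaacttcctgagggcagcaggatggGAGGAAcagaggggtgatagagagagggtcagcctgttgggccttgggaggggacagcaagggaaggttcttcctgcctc
C1qc: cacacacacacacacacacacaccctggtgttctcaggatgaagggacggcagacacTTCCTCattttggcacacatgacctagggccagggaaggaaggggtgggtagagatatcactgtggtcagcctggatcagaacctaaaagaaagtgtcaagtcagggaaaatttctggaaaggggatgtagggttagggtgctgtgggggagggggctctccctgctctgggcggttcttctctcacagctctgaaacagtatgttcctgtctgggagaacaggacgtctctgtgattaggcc
The letters were found in 4 of the 6 members with an entry, C1qb, C1qc, Aif1 and Trem2, and were not found in the windows of P2ry12 and Cx3cr1. The gene starts of P2ry12 (59262871) and Cx3cr1 (120069879) in the GENCODE annotation lie outside these windows. The promoter at that start of Cx3cr1 was therefore not searched, and the one at that start of P2ry12 was searched only in part. Among all 32851 promoters of this length, 28.3% held them. Csf1r, Tmem119, Tyrobp and C1qa had no entry.

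The total count per library ranged from 23128589 to 40476492. In 5 Ts65Dn mice, triplicated coding genes of chromosome 16, from Mrpl39 to Zbtb21, had a median level of 1.43 to 1.54 times the wt mean (HIP) or 1.46 to 1.51 times (EC). In the library labelled Ts65Dn replicate 3 it was 1.02 (HIP) or 1.01 (EC), at the level of the wt libraries (0.982 to 1.01), which goes against its label. This mouse was kept under its label in each test, and counts that changed without it are given beside those with it. All 14 microglial markers fixed for the cell type check had counts in every group, the 10 genes among them. The summed level of the 14 was 504.1 to 564.5 CPM (counts scaled to library size) in the wt HIP and 536.8 to 756.3 CPM in the wt EC. Region markers matched the labels: all 6 hippocampal markers were higher in the HIP and 5 of 6 cortical markers were higher in the EC in wt. Markers of monocytes and neutrophils summed to at most 12.99 CPM in any library, and those of border macrophages to at most 27.3 CPM.

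Levels per exon length (RPKM, CPM per kb of exon) placed 2 of the C1q chains first. In the wt HIP, C1qa was at 38.8 ± 3.09 RPKM and C1qb at 36.4 ± 4.56 RPKM (SD, n = 6 mice), and the ranges of these 2 overlapped. P2ry12 (21.9 ± 1.43 RPKM), Tyrobp (19.97 ± 2.19 RPKM), C1qc (18.5 ± 1.07 RPKM) and Csf1r, the receptor for colony-stimulating factor and IL-34 (16.4 ± 1.17 RPKM), came next, and each of them overlapped with its neighbour in this order. Cx3cr1, the fractalkine receptor, followed at 13.8 ± 0.890 RPKM, and Tmem119, a membrane protein that marks microglia, at 9.64 ± 0.711 RPKM, both without overlap with their neighbours. Aif1, which encodes the calcium-binding protein IBA1 used to stain microglia, was at 3.64 ± 0.829 RPKM and overlapped with Trem2 at 2.39 ± 0.156 RPKM. The place of Trem2 rested on its length, since its exons cover 4946 bases over several transcripts and 1088 in the principal one: with the latter its level was 10.8 ± 0.710 RPKM, which put it above Tmem119 and Aif1. C1qc moved to the third place with the principal transcript, at 29.7 ± 1.72 RPKM.

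The spread between mice differed between the genes. In the wt HIP the coefficient of variation was lowest for C1qc (5.77%) and highest for Aif1 (22.8%), and in the Ts65Dn HIP it was lowest for Cx3cr1 (2.84%) and highest for Aif1 (33.4%). Aif1 ranged from 3.40 to 7.81 CPM (median 5.399 CPM) in the Ts65Dn HIP, and from 4.96 to 10.1 CPM (median 8.82 CPM) in the Ts65Dn EC. In both regions the library labelled Ts65Dn replicate 3 and Ts65Dn replicate 6 had the lowest levels of Aif1 among Ts65Dn. This coefficient was higher in the wt EC than in the wt HIP for 9 of 10 members, all but Aif1, and for most members wt replicates 2 and 3 were at the top of the wt EC and replicates 1 and 4 at the bottom. Over the 10 genes together the summed level was 356.9 to 419.1 CPM in the wt HIP, 321.9 to 395.8 CPM in the Ts65Dn HIP, 396.5 to 554.0 CPM in the wt EC and 367.6 to 486.7 CPM in the Ts65Dn EC.

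**Figure D1:**
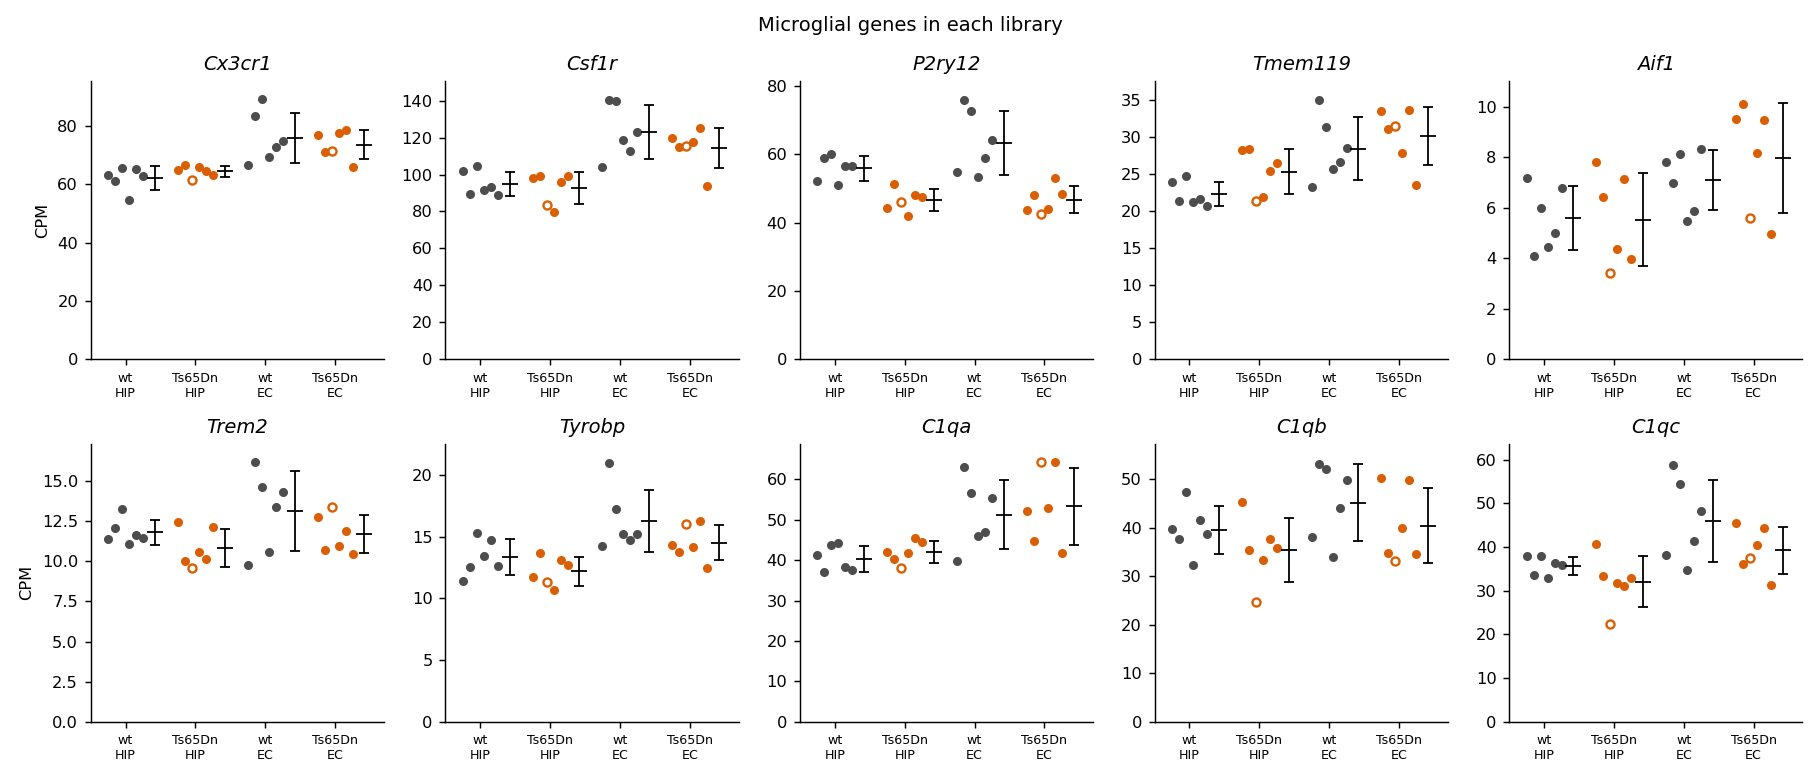
Level of each microglial gene in CPM in the 24 libraries. Each point is 1 library, open points are the library labelled Ts65Dn replicate 3, and bars at the right of each group give the mean and SD over 6 mice. In the P2ry12 panel the 6 Ts65Dn EC libraries, at 42.55 to 53.1 CPM, all sit below the 6 wt EC libraries, at 53.2 to 75.9 CPM, and the top of the wt EC is taken by the same 2 mice in most panels.

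The first comparison asked whether microglial genes differ between Ts65Dn and wt within a region. P2ry12, the receptor for ADP and ATP that guides microglial processes, was lower in Ts65Dn in both regions, and the other 9 genes did not pass the test in either region. In the HIP, 1 of 10 members was called lower and 0 higher, beside 1.04% of all 17355 genes tested called and 0.501% called lower. In the EC, 1 of 10 was called lower and 0 higher, beside 2.50% of 17049 genes called and 1.35% called lower. Over the 10 genes the median log2 fold change was -0.08 for the HIP and -0.14 for the EC, beside 0.00 over all genes in each region. Of the 10 log2 fold changes, 7 were negative in each region.

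P2ry12 is at 59216272 to 59262871 on chromosome 3 (GRCm38), inside Med12l, which runs on the other strand. In the HIP its level ranged from 51.0 to 60.1 CPM in wt (median 56.5 CPM) and from 41.8 to 51.25 CPM in Ts65Dn (median 46.7 CPM). There 5 of the 6 Ts65Dn mice lay below all wt mice, and the remaining one, Ts65Dn replicate 2, lay just above the lowest wt mouse. The log2 fold change in the HIP was -0.27 (95% interval -0.39 to -0.14, standard error 0.06) with an adjusted p of 0.0422 (edgeR), or 0.831 times the wt level. In the EC P2ry12 ranged from 53.2 to 75.9 CPM in wt (median 61.5 CPM) and from 42.55 to 53.1 CPM in Ts65Dn (median 46.0 CPM). All 6 Ts65Dn mice lay below all 6 wt mice, as in 1.18% of all genes in this direction, and the gap between the highest Ts65Dn mouse and the lowest wt mouse was narrow. The log2 fold change in the EC was -0.45 (95% interval -0.64 to -0.26, standard error 0.09) with an adjusted p of 0.0226 (edgeR), or 0.733 times the wt level.

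The library labelled Ts65Dn replicate 3, in which the triplicated genes were at the wt level, was low in P2ry12 with the other Ts65Dn mice, at 46.0 CPM (HIP) and 42.55 CPM (EC), the lowest EC level of all. Without it the log2 fold change was -0.27 in the HIP (adjusted p = 0.0483 from edgeR) and -0.42 in the EC (adjusted p = 0.0309), and none of the other 9 genes was called. P2ry12 has the lowest GC content of the 10 genes, 38.6%, where the others lie between 50.3% and 59.5%. With the trend of the counts on GC content and length removed, its log2 fold change was -0.16 in the HIP (adjusted p = 0.319 from edgeR) and -0.31 in the EC (adjusted p = 0.143), so that neither was called. In the HIP the call was close to the threshold and was lost without wt replicate 2 (adjusted p = 0.0912 from edgeR), 3 (0.108), 5 (0.0874) or 6 (0.0920) and without Ts65Dn replicate 1 (0.0968), 4 (0.0842), 5 (0.0520) or 6 (0.0891). In the EC it was lost without wt replicate 3 (adjusted p = 0.0534), Ts65Dn replicate 1 (0.0606) or Ts65Dn replicate 4 (0.0541).

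Genes beside P2ry12 were examined for the same change. Within 1 Mb, 14 genes were tested. In the HIP 0 were called, beside 1.04% of all genes. In the EC 1 was called, lower, beside 2.50% of all genes called and 1.35% called lower. It was Serp1, which encodes a membrane protein of the endoplasmic reticulum, with a log2 fold change of -0.24 (adjusted p = 0.0324 from edgeR). The largest changes were those of Gm8276, -1.17 (HIP) and -1.36 (EC), which were not called. In the other direction Clrn1 had 0.16 (HIP) and 0.83 (EC), also not called. Serp1, Gm8276 and Clrn1 were chosen after their values were seen. Med12l, whose exons share 9 bases with those of P2ry12 on the opposite strand, had log2 fold changes of -0.06 (HIP) and 0.03 (EC). P2ry13, the neighbouring ADP receptor that is also expressed by microglia, ranged from 14.1 to 18.1 CPM in the wt HIP and from 13.2 to 17.8 CPM in the Ts65Dn HIP, and from 18.6 to 27.9 CPM in the wt EC and from 14.2 to 20.5 CPM in the Ts65Dn EC. These ranges overlapped, and its log2 fold changes of -0.17 (adjusted p = 0.382 from edgeR) and -0.30 (adjusted p = 0.139) did not pass the test.

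Among the other receptors, Cx3cr1 ranged from 54.7 to 65.6 CPM in the wt HIP (median 63.1 CPM) and from 61.7 to 66.6 CPM in the Ts65Dn HIP (median 64.8 CPM). Its log2 fold change was 0.05 in the HIP (95% interval -0.05 to 0.15), so the interval left room for a change of no more than 1.11 times upward or 0.966 times downward, and -0.05 in the EC (95% interval -0.21 to 0.10). Csf1r ranged from 88.9 to 104.9 CPM in the wt HIP and from 79.75 to 99.1 CPM in the Ts65Dn HIP, with log2 fold changes of -0.04 in the HIP (95% interval -0.18 to 0.10) and -0.11 in the EC (95% interval -0.29 to 0.06). Csf1r lies on chromosome 18 and shares 873 of its 5774 exon bases with Hmgxb3 on the opposite strand, whose log2 fold changes were 0.03 (HIP) and -0.02 (EC). Cx3cr1 shares 78 exon bases with the antisense gene Gm33858. The strand setting of the counting is not given in the sources used here, so reads from these shared bases could not be assigned to a strand. The ligands of these receptors did not pass the test either: Cx3cl1, which encodes fractalkine, had log2 fold changes of 0.05 and -0.05, Csf1 had -0.05 and -0.08, and Il34 had 0.18 and 0.12 in the HIP and EC.

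Tmem119 had the highest positive value in the HIP, with 20.7 to 24.7 CPM in wt (median 21.6 CPM) and 21.45 to 28.4 CPM in Ts65Dn (median 26.0 CPM). There 4 of 6 Ts65Dn mice lay above all wt mice, and the log2 fold change of 0.18 (standard error 0.08) did not pass the test (adjusted p = 0.308 from edgeR, unadjusted p = 0.0387, which 14.8% of all genes passed). The EC log2 fold change was 0.08 (95% interval -0.15 to 0.30). Aif1 had the widest intervals, with log2 fold changes of -0.01 in the HIP (95% interval -0.47 to 0.45) and 0.16 in the EC (95% interval -0.22 to 0.54), so these intervals include folds of 0.720 to 1.36 (HIP) and of 0.858 to 1.45 (EC).

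Trem2 and Tyrobp, which encode the receptor and adaptor of a complex, had similar values. For Trem2 the log2 fold change was -0.13 in the HIP (95% interval -0.30 to 0.04) and -0.18 in the EC (95% interval -0.43 to 0.07), and 4 of 6 Ts65Dn HIP libraries lay below all wt HIP libraries. For Tyrobp it was -0.13 in the HIP (95% interval -0.32 to 0.05) and -0.18 in the EC (95% interval -0.39 to 0.03). Neither gene passed the test, the lowest adjusted p being 0.350 for Tyrobp in the EC (edgeR).

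**Figure D2:**
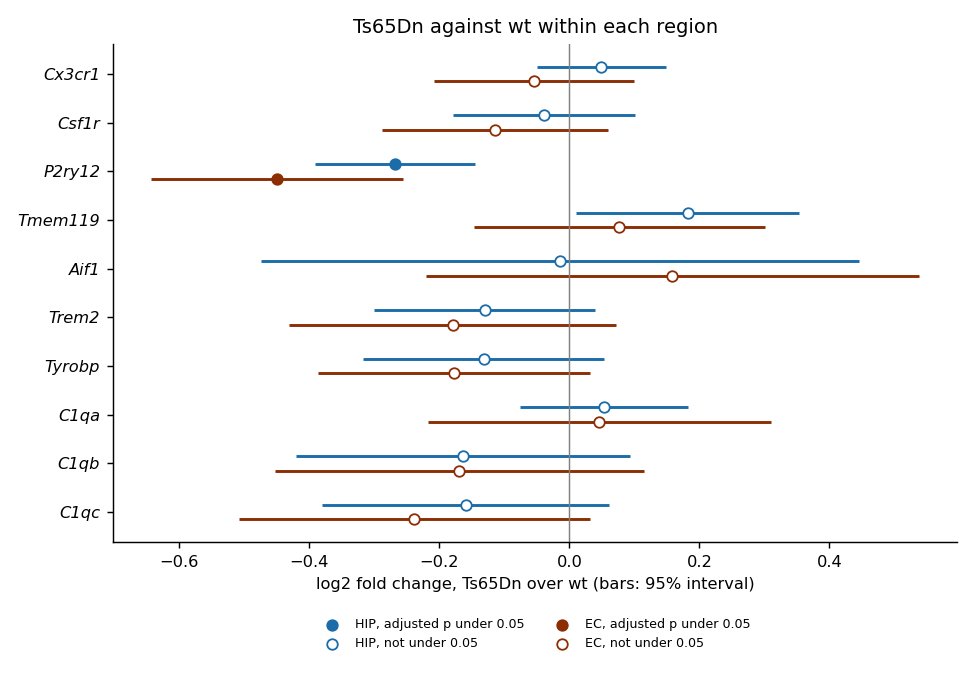
Log2 fold change of Ts65Dn over wt for each microglial gene in the HIP (blue) and the EC (brown), with 95% intervals from edgeR on 6 against 6 mice. Filled points passed an adjusted p of 0.05 over all genes: P2ry12 at -0.27 for the HIP and -0.45 for the EC, while the intervals of the other genes include 0 except that of Tmem119 in the HIP, which did not pass after adjustment.

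The 3 C1q chains had values on either side of 0. C1qa had log2 fold changes of 0.05 in the HIP (95% interval -0.08 to 0.18) and 0.05 in the EC (95% interval -0.22 to 0.31). C1qb had -0.16 in the HIP (95% interval -0.42 to 0.09) and -0.17 in the EC (95% interval -0.45 to 0.11), and C1qc had -0.16 in the HIP (95% interval -0.38 to 0.06) and -0.24 in the EC (95% interval -0.51 to 0.03). None passed the test. Among all HIP libraries the lowest levels of C1qb, 24.7 CPM, and C1qc, 22.5 CPM, were in the one labelled Ts65Dn replicate 3, without which the log2 fold changes were -0.08 for each of these genes.

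Ratios between the chains within a library were compared after these values had been seen, with an exact permutation test over all 924 splits of 12 mice into groups of 6 and adjustment over 6 tests. The log2 ratio of C1qa over C1qc per length ranged from 0.95 to 1.29 in the wt EC and from 1.09 to 1.67 in the Ts65Dn EC, and these ranges overlapped. Its mean was 0.27 higher in Ts65Dn (two-sided exact permutation test, p = 0.0173, adjusted p = 0.104), and 0.23 higher in the HIP (exact p = 0.0714, adjusted p = 0.179). The log2 ratio of C1qb over C1qc differed by 0.00 in the HIP (exact p = 0.987) and 0.05 in the EC (exact p = 0.431). None of the 6 ratios passed the adjustment.

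The wider pathway and marker lists were counted in the same way. By genotype, 0 genes were called in either region among 10 ligands and partners of the member receptors, 19 complement genes (17 tested in the HIP and 16 in the EC), 13 genes of TREM2-DAP12 signalling (11 tested), 25 other homeostatic microglial genes, 10 microglial transcription factors (9 tested) and 20 genes of disease-associated microglia (16 tested). Over all genes tested 1.04% (HIP) and 2.50% (EC) were called, so counts of 0 in lists of this size set them little apart. The list medians ranged from 0.01 to 0.18 for the HIP and -0.05 to 0.07 for the EC. The most abundant genes of the lists had small values: Apoe, the main brain lipoprotein and a ligand of TREM2, had log2 fold changes of -0.03 (HIP) and -0.06 (EC), and Clu, which encodes clusterin, had -0.06 and -0.10. In the complement list Csmd1, a complement inhibitor, had -0.03 and -0.08. In TREM2-DAP12 signalling Siglech had 0.06 and 0.05 and the lipid phosphatase gene Inpp5d had 0.04 and -0.04. Of the other homeostatic genes Ctss, which encodes cathepsin S, had 0.14 and 0.05. The transcription factor Sall1, which maintains microglial identity, had 0.12 and 0.05, and Bhlhe41 had -0.05 and -0.03. Of the genes of disease-associated microglia, Ctsb had 0.04 and -0.05 and Ctsd had 0.18 and 0.02. Runx1, the transcription factor gene of this group that lies in the triplicated segment, was at 0.624 to 1.49 CPM in the Ts65Dn HIP and 0.642 to 1.22 CPM in the wt HIP, and its log2 fold changes of 0.12 (standard error 0.23) and 0.22 (standard error 0.20) did not pass the test.

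Markers of other cell types were checked beside the genotype values. In each region 0 markers were called among border macrophages, monocytes and neutrophils, erythroid cells, astrocytes, oligodendrocytes, endothelium, pericytes and smooth muscle, neurons, choroid plexus and meningeal fibroblasts. Over all genes tested 1.04% (HIP) and 2.50% (EC) were called, so a count of 0 sets these short lists little apart. Not all markers were tested: 2 (HIP) and 4 (EC) of 8 for monocytes and neutrophils, 5 of 8 for border macrophages in the HIP, and 4 of 8 for choroid plexus in the EC. Without the library labelled Ts65Dn replicate 3, 1 of 8 astrocyte markers was called lower in the EC, the glutamate transporter gene Slc1a2 (log2 fold change -0.28, adjusted p = 0.0409 from edgeR), and so was 1 of 6 cortical markers, Rorb (-0.46, adjusted p = 0.0422), both chosen once the values were known. In the list of oligodendrocyte precursors 2 of 7 were called higher in both regions, with Olig1 at 0.51 and Olig2 at 0.51 in the HIP, both of which lie in the triplicated segment. The summed astrocyte markers ranged from 6678 to 7613 CPM in the wt EC and from 5170 to 7044 CPM in the Ts65Dn EC, where the median of the 8 log2 fold changes was -0.17, beside the lower P2ry12 there. The 5 erythroid markers had a median log2 fold change of -0.39 for the HIP and -0.73 for the EC, and their sum ranged from 138.7 to 544.5 CPM in the wt EC and from 104.5 to 300.1 CPM in the Ts65Dn EC. In the HIP the largest positive list medians were those of meningeal fibroblasts (0.66), border macrophages (0.52) and choroid plexus (0.34). In the EC the medians of these 3 lists were -0.00, -0.07 and -0.50. The part of these values in the P2ry12 result was not tested.

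The second comparison set the HIP against the EC of the same mice. Microglial genes were lower in the HIP than in the EC. In wt, 9 of 10 members were called lower in the HIP, all but Trem2, beside 58.6% of all 18109 genes called and 28.3% called lower. In Ts65Dn, 8 of 10 were called lower, all but Trem2 and P2ry12, beside 56.5% called and 27.0% called lower. Without the library labelled Ts65Dn replicate 3, only 3 of 10 were called lower in Ts65Dn. The median log2 fold change over the 10 genes was -0.31 in wt and -0.25 in Ts65Dn, beside 0.01 over all genes in each genotype. With most genes called between these regions, a call by itself sets little apart.

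Cx3cr1 ranged from 54.7 to 65.6 CPM in the wt HIP and from 66.65 to 89.3 CPM in the wt EC, and it was the only member whose 2 wt groups did not overlap, as in 15.9% of all genes in this direction. Its log2 fold change was -0.29 in wt (standard error 0.05, edgeR adjusted p = 0.00017 with a term for each mouse), lower in the HIP of 6 of 6 mice, as were 26.4% of all genes, and -0.19 in Ts65Dn (standard error 0.05, adjusted p = 0.00477), again in 6 of 6 mice, as were 22.6% of all genes. Csf1r had the largest size in wt, with 88.9 to 104.9 CPM in the HIP and 104.1 to 140.5 CPM in the EC. The log2 fold change of Csf1r was -0.37 in wt (adjusted p = 0.000655 from edgeR) and -0.31 in Ts65Dn (adjusted p = 0.00316), and Hmgxb3, with which it shares exon bases, was also lower in the HIP (-0.26 and -0.21). Of the genes for their ligands, Cx3cl1 and Il34 were lower in the HIP in wt (log2 fold changes -0.67 and -0.64) and in Ts65Dn (-0.57 and -0.59), whereas Csf1 was higher in both (0.62 and 0.66).

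P2ry12 had a log2 fold change of -0.17 in wt (standard error 0.05, adjusted p = 0.00678 from edgeR), with all 6 wt mice lower in the HIP, and -0.00 in Ts65Dn (standard error 0.05, 95% interval -0.11 to 0.10), with 3 of 6 mice lower. The difference between the genotypes, an interaction of 0.17 (standard error 0.07, 95% interval 0.02 to 0.32), had an unadjusted p of 0.0281 and an adjusted p of 0.9998 in edgeR, so it did not pass. With GC content and length removed P2ry12 was lower in the HIP of both genotypes, at -0.32 in wt (adjusted p = 0.000184 from edgeR) and -0.17 in Ts65Dn (adjusted p = 0.0184). Without the term for the mouse the wt value was -0.18 and was no longer called (adjusted p = 0.0536).

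Aif1 had log2 fold changes of -0.36 in wt (adjusted p = 0.0045 from edgeR) and -0.54 in Ts65Dn (adjusted p = 0.000205), and was lower in the HIP of all 12 mice. Tmem119 had -0.34 in wt and -0.25 in Ts65Dn, each with 5 of 6 mice lower. Tyrobp had -0.28 in wt and -0.25 in Ts65Dn, while Trem2 had -0.14 (95% interval -0.33 to 0.05) and -0.11 (95% interval -0.31 to 0.08) and did not pass the test. Of the C1q chains, C1qa had -0.34 and -0.33, C1qc had -0.34 and -0.30, and C1qb had -0.18 (adjusted p = 0.0485 from edgeR) and -0.19 (adjusted p = 0.0437). Without the term for the mouse Aif1 was not called in wt (adjusted p = 0.157), C1qb in neither genotype (0.238 and 0.247) and C1qc not in Ts65Dn (0.0530). With GC content and length removed the calls of C1qb in wt (adjusted p = 0.0731) and of C1qb (0.122) and Tyrobp (0.098) in Ts65Dn were lost.

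Single mice carried some of these calls. Without wt replicate 2, whose EC had the highest levels of several members, 5 of 10 remained in wt, and Tyrobp (adjusted p = 0.0600 from edgeR), C1qa (0.0563), C1qc (0.0504) and C1qb (0.204) were lost. C1qb was also lost in wt without wt replicates 3, 4, 5 or 6 (adjusted p = 0.0736, 0.0518, 0.0558 and 0.146) and without Ts65Dn replicate 1 (0.0582). In Ts65Dn 3 of 10 remained without the library labelled Ts65Dn replicate 3, Cx3cr1, Csf1r and Aif1, with Tmem119 (0.102), Tyrobp (0.0921), C1qa (0.0583), C1qb (0.142) and C1qc (0.101) lost. Without Ts65Dn replicate 5, 4 remained, and Tmem119 (0.0795), Tyrobp (0.0612), C1qb (0.144) and C1qc (0.0778) were lost. Without Ts65Dn replicate 1 or 4, 5 remained, with Tmem119 (0.0518 and 0.0597), Tyrobp (0.0582 and 0.0667) and C1qb (0.0652 and 0.0874) lost, and C1qb was lost in Ts65Dn without wt replicate 3 (0.0536) or 5 (0.0509). Cx3cr1, Csf1r and Aif1 were called in both genotypes in every fit that left out 1 mouse.

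**Figure D3:**
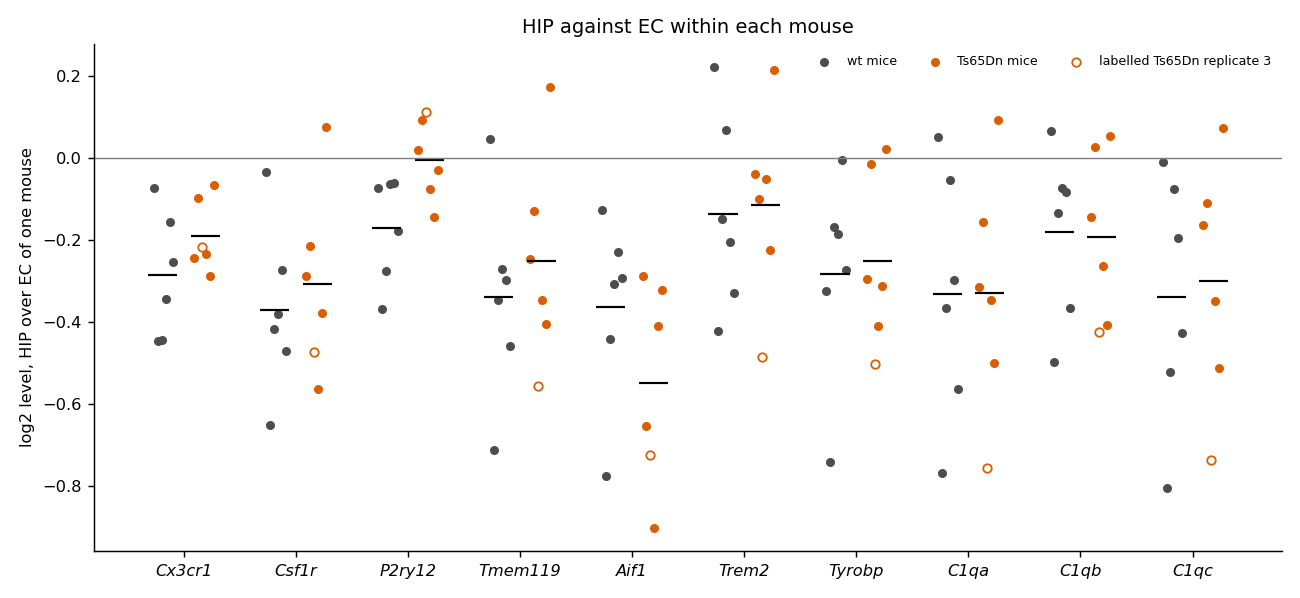
Log2 level in the HIP over that in the EC of the same mouse, for each microglial gene. Points are mice (6 wt, 6 Ts65Dn), open points are the library labelled Ts65Dn replicate 3, and black lines are group means. For Aif1 and Cx3cr1 all 12 mice are below 0, whereas for P2ry12 the Ts65Dn mice lie on both sides of 0, with a mean of -0.00.

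The interaction of genotype and region was called for 0 of the 10 members and 0 of 18109 genes (0%) by edgeR. At an unadjusted p under 0.05 it passed for 1 of 10 members, P2ry12, and 4.10% of all genes, and by DESeq2 and by limma with duplicateCorrelation 0 genes were called after adjustment. The interaction values of the 10 members ranged from -0.18 for Aif1 (95% interval -0.47 to 0.11) to 0.17 for P2ry12.

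Other microglial genes between the regions moved in both directions. Over all genes, 30.3% were called higher in the HIP and 28.3% lower in wt, and 29.5% and 27.0% in Ts65Dn. In wt the counts of transcription factors and of genes of disease-associated microglia were near these shares. So were the count of TREM2-DAP12 signalling genes called lower and the counts of complement genes and of ligands and partners called higher. In wt, 14 of 25 other homeostatic genes were lower in the HIP and 3 were higher, and in Ts65Dn 10 were lower and 4 higher (9 lower without the library labelled Ts65Dn replicate 3). Golm1, which encodes a Golgi membrane protein, was higher in the HIP (log2 fold change 1.89 in wt), while Ptgs1, which encodes cyclooxygenase-1 (-0.69), Mertk, a receptor for the uptake of dying cells (-0.47), and Fcgr3, an Fc receptor gene (-0.47), were lower. Of the microglial transcription factors 3 of 9 were higher and 3 lower in wt. Cebpa (0.87), Bhlhe41 (0.56) and Sall1 (0.24) were higher, and Spi1 (-0.52) and Irf8 (-0.29) were among those lower. In Ts65Dn 3 were higher and 2 lower, or 1 lower without the library labelled Ts65Dn replicate 3. In TREM2-DAP12 signalling 3 of 11 were lower in wt, Inpp5d (-0.63), Pik3r5 (-0.61) and Pik3cg (-0.34), and 1 was higher, the kinase gene Syk (0.25), and in Ts65Dn 2 were lower and 0 higher.

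Of the complement genes beyond C1q, 6 of 18 were higher in the HIP and 2 lower in wt, beside 30.3% of all genes higher and 28.3% lower, with C3 (log2 fold change 3.13), C4b (2.21) and Cd59a, an inhibitor of the membrane attack complex (1.10), higher and Csmd1 (-0.51) lower. In Ts65Dn 7 were higher and 1 lower (6 and 1 without the library labelled Ts65Dn replicate 3), beside 29.5% of all genes higher and 27.0% lower. C4a and C4b are near copies, so their counts can share reads and are uncertain. Among genes of disease-associated microglia 6 of 17 were higher and 5 lower in wt, led by Cd9 (1.15), Lpl (1.48), Gpnmb (1.63) and Lgals3 (1.48), and 7 were higher and 3 lower in Ts65Dn. Ligands and partners had 3 of 10 higher and 4 lower in each genotype (3 and 3 in Ts65Dn without the library labelled Ts65Dn replicate 3). Adam17, a sheddase of several membrane proteins of microglia, was among those higher (0.34 in wt).

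Markers of other cells also differed between the dissected regions. The counts stand beside 30.3% of all genes called higher in the HIP and 28.3% lower in wt, and 29.5% and 27.0% in Ts65Dn. In wt the 8 oligodendrocyte markers were all higher in the HIP, with a median log2 fold change of 2.10, and so were the 8 choroid plexus markers (median 5.12), whose sum ranged from 99.2 to 5006 CPM in the wt HIP and from 13.7 to 52.3 CPM in the wt EC. Lower in the HIP, with the microglial genes, were 6 of 8 border macrophage markers (median -0.996), 4 of 5 erythroid markers (median -1.02), 7 of 8 endothelial markers (median -0.41), 4 of 7 pericyte and smooth muscle markers (median -0.23) and 4 of 8 neuronal markers (median -0.17). In Ts65Dn 3 of 8 border macrophage, 4 of 5 erythroid, 6 of 8 endothelial and 3 of 7 pericyte and smooth muscle markers were lower. Without the library labelled Ts65Dn replicate 3 these counts were 3, 3, 7 and 0. Astrocyte markers were split, 3 higher and 4 lower in each genotype (3 and 3 in Ts65Dn without that library). The share of these other cells in the values of the microglial genes was not tested.

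**Figure D4:**
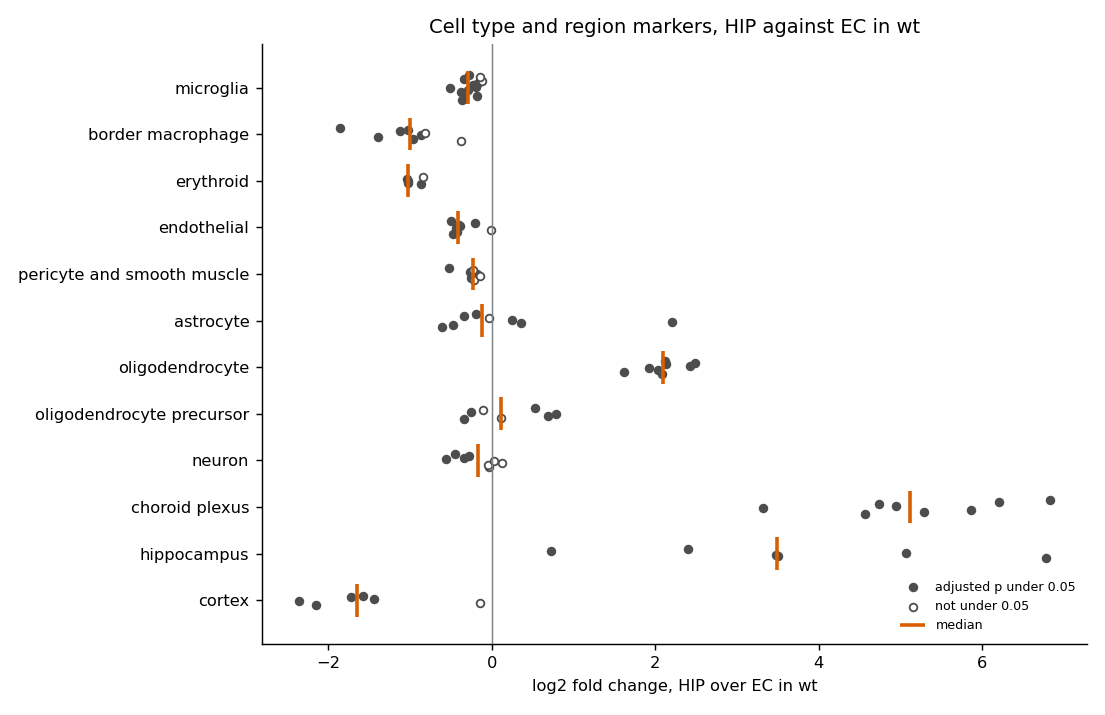
Log2 fold change of the HIP over the EC in wt for the genes of 12 marker lists. Each point is 1 gene, filled where the adjusted p was under 0.05, and orange bars are list medians. The microglial markers, which include the 10 genes, centre at -0.29 and lie between the lower border macrophage and erythroid markers (medians -0.996 and -1.02) and the markers of oligodendrocytes (2.10) and choroid plexus (5.12) that were higher in the HIP.

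Within groups the microglial genes varied together. After removal of the group means, all 45 pairs of members had a positive correlation over the 24 libraries (log2 CPM, Pearson's r), with a median of 0.634, from 0.135 for Aif1 and Trem2 to 0.935 for Tmem119 and Csf1r. These are descriptions, since the 24 libraries come from 12 mice and share a scaling. Among the C1q chains, C1qb and C1qc had r = 0.907, and C1qa had r = 0.498 with C1qb and 0.639 with C1qc. Against the mean of the other 9 members, Tmem119 had r = 0.906, C1qc 0.888 and Csf1r 0.878, and each of these was the closest of 18100 genes to the mean of its other members. P2ry12 (r = 0.603) and Aif1 (r = 0.467) followed the others least. Among the further genes most like the mean of the 10 were Pea15a (r = 0.836), Matn2 (0.825), Ptgs1 (0.804) and Gstm4 (0.794), of which Ptgs1 was on the list of other homeostatic genes.

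A mouse that was high in the HIP was also high in the EC for some members only. Over 12 mice, with genotype means removed, P2ry12 in the HIP and EC had Pearson's r = 0.775 (permutation p = 0.00515, adjusted over the 10 genes 0.0257) and Spearman's rho = 0.797 (permutation p = 0.00319, adjusted 0.0235). Aif1 had r = 0.829 (permutation p = 0.0035, adjusted 0.0257) and rho = 0.832 (permutation p = 0.0047, adjusted 0.0235). Without the 2 mice farthest from the median, r was 0.760 for P2ry12 and 0.774 for Aif1. C1qb had r = 0.666 (adjusted permutation p = 0.0614) and rho = 0.629 (adjusted 0.143), and the other 7 genes lay between -0.291 for C1qa and 0.382 for Cx3cr1. The number of genes that passed was 0 without wt replicate 3, 4 or 6 or Ts65Dn replicate 1, 1 without Ts65Dn replicate 2 or 5, and 3 without wt replicate 2.

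**Figure D5:**
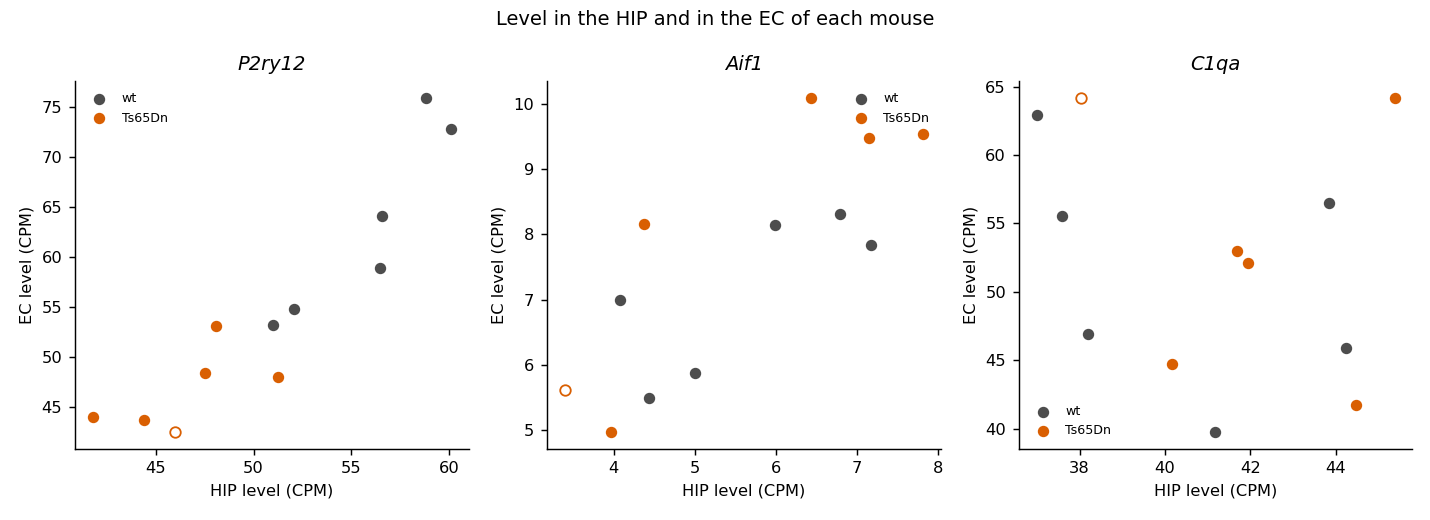
Level in the HIP (horizontal axis, CPM) against the level in the EC (vertical axis, CPM) of each mouse for P2ry12, Aif1 and C1qa. Points are mice, with wt in grey, Ts65Dn in orange and the library labelled Ts65Dn replicate 3 open. Within genotypes P2ry12 and Aif1 are high or low in both regions of a mouse (r = 0.775 and 0.829), which was not seen for C1qa (r = -0.291).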

How the data were processed

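Libraries of 6 wt and 6 Ts65Dn males, from HIP and EC, were analysed, with groups and mice taken from the sample labels. The authors used Hisat2 on GRCm38 with Ensembl release 99 and deposited raw HTSeq-count values per gene, without normalization. The labels name an mRNA kit with polyA selection. The methods name a ribosomal RNA depletion kit and state separately that polyA RNA was extracted. The strand setting of the counting is not given in the sources used here. Of 55385 genes 36766 had a count, 0 rows named no gene, and 0 columns of counts were left out. The submitters' processing notes name bcl2fastq 2.17.1.14, DESeq2 and mm10. The authors' tables of their own comparisons (mean normalized counts, log2 fold changes, ratios, scores and p-values) were not used. Gene positions and lengths came from GENCODE vM21 (GRCm38), which held 99.6% of identifiers.

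Counts were tested with edgeR 4.0.16 (R 4.3.3) after filterByExpr and TMM scaling, and p-values were adjusted over all genes by Benjamini-Hochberg, with a threshold of 0.05. Genotypes were compared within a region, 6 against 6. Regions and the interaction were tested in 1 fit of 24 libraries with a term for each mouse, since the labels give the mouse, and HIP and EC deviations of the same mouse correlated at 0.178 to 0.426 in all 12. Standard errors and intervals are from the same fits. Simulated counts were used to check those of the HIP genotype, wt region and interaction tests. The simulation held no differences between mice, so it could not check the term for each mouse. Correlations were computed on log2 CPM (prior count 2) with 100000 permutations of mice within genotype (scipy 1.17.1, Python 3.11.15). P-values of the genotype tests rest on the spread between these mice. Those of the region and interaction tests rest on the spread of the difference between regions over mice, pooled over both genotypes. Alternatives were DESeq2 1.42.0 and its size factors, other filters (none, or at least 10 counts in every library), an adjusted p under 0.1, offsets for GC content and length, the replicate block, limma 3.58.1 with duplicateCorrelation, other gene lengths, a prior count of 0.5 and leaving out each mouse. The principal transcript length was chosen after seeing the data.

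The members, the lists and the tests were chosen with earlier results of these data known. The text names all 10 members in each comparison, up to 4 genes per list among those called, by adjusted p, or the 2 most abundant where none was called, and the ligands and Runx1. Genes near P2ry12, genes that overlap members, and further transcription factors called in wt were named beyond this rule. Some genes that this rule takes are not reported here.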

Additional observations from a re-analysis of the deposited data

Results flagged for a closer look

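Csf1r in the EC of Ts65Dn replicate 6 was at 94.0 CPM, apart from the other 5 Ts65Dn EC libraries, which ranged from 114.9 to 125.0 CPM. Its gap to the nearest of them exceeded the 95% critical value of Dixon's test for 6 samples. This was 1 of 40 groups examined, 10 genes in 4 groups, and chance sets apart a value in about 1 group in 20.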

How the results depend on the processing

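The genotype call of P2ry12 held with DESeq2, its size factors, the stricter filter and an adjusted p under 0.1 in both regions. The number of members called by genotype was 0 in the HIP without a filter on low counts, 0 in both regions with GC content and length removed, 0 in both with the replicate block, and 0 to 1 across fits that left out 1 mouse. With the replicate block P2ry12 was at -0.27 in the HIP (adjusted p = 0.0734 from edgeR) and -0.44 in the EC (adjusted p = 0.0665). That block pairs different mice: wt and Ts65Dn libraries of the same number had correlated deviations (HIP r -0.198 to 0.153, EC r -0.0812 to 0.166) over 0.1 in 2 of 6 pairs and 1 of 6 pairs, and 1 library in each region matched best with its own number. Over all genes the calls by genotype, 181 (HIP) and 426 (EC), were 575 and 1078 with DESeq2, 389 and 1025 at an adjusted p under 0.1, 75 and 141 with GC content and length removed, 29 and 36 with the replicate block, 54 to 318 and 90 to 685 without 1 mouse, and 275 in the EC without a filter. The cause was not tested.

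Members called between regions were 5 to 9 in wt and 3 to 8 in Ts65Dn without 1 mouse, 8 and 7 with GC content and length removed, and 6 in each genotype without the replicate block for the mouse. The interaction was called for 37 genes without a filter. The summed level per length in the wt HIP, 181.5 RPKM, was 203.8 with the longest and 213.5 with the principal transcript, by construction. Likeness between regions passed for 0 to 3 genes without 1 mouse.

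Values that changed sign were small and not called. With GC content and length removed C1qa by genotype was -0.022 (HIP) and -0.054 (EC), Tmem119 was -0.051 (EC), and the C1qb interaction was 0.018. That of C1qb was 0.0014 without the mouse block and that of C1qa -0.0044 without a filter. Without 1 mouse the genotype values ranged from -0.135 to 0.092 for Aif1 (HIP), -0.058 to 0.0021 for Csf1r (HIP) and -0.017 to 0.113 for C1qa (EC), and P2ry12 between regions in Ts65Dn from -0.026 to 0.022. Interactions then ranged from -0.072 to 0.050 for C1qb, -0.037 to 0.104 for Trem2, -0.061 to 0.091 for Tyrobp, -0.084 to 0.091 for C1qa, -0.049 to 0.133 for C1qc and -0.011 to 0.132 for Csf1r, and correlations of HIP and EC from -0.23 to 0.198 for Tyrobp, -0.109 to 0.158 for Tmem119, -0.0276 to 0.29 for C1qc and -0.43 to 0.00223 for Csf1r.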
